A study of Mus musculus with 12 samples.

Results

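The genes described here are 10 X-linked mouse genes for secreted matrix proteins, matrix-associated proteins and glypicans: Timp1, Bgn, Col4a5, Col4a6, Srpx, Srpx2, Tnmd, Chrdl1, Gpc3 and Gpc4. They were chosen by name, and all 10 had a value in all 8 chromatin immunoprecipitation (ChIP) libraries, out of 952 genes listed and 698 with values throughout. The histone marks H3K9me3 and H3K27me3, both found on silenced chromatin, had been measured by ChIP-seq in female cells, with 1 library per mark, genotype and cell type and 1 input library (DNA before immunoprecipitation) per genotype and cell type. EpiSCs are epiblast stem cells labelled E6.5, and MEFs are embryonic fibroblasts labelled E13.5. WT cells were Smchd1 +/+ and MD1 cells were Smchd1 MD1/MD1, which lack functional SmcHD1, an SMC-family protein of chromosomes. All groups, controls included, were Xist deltaA/+ and came from crosses of C57BL6/J with F1 animals of JF1 x C57BL6/J, so that the X carrying the intact Xist is the one silenced. How many embryos or cultures lie behind a library is not stated in the labels. No expression or autosomal values were used, so neither the cell types nor the loss of SmcHD1 was checked against a marker.

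In female cells 1 X is silenced by Xist RNA. H3K27me3 is laid down by the Polycomb complex PRC2 and spreads over most of the silenced X, while H3K9me3 is a mark of heterochromatin that forms separate blocks along it. The matrix genes on this chromosome have different cell biology. Col4a5 and Col4a6 encode type IV collagen chains of basement membranes, Bgn encodes biglycan, a small leucine-rich proteoglycan, and Timp1 encodes an inhibitor of the metalloproteinases that degrade matrix. Gpc3 and Gpc4 encode glypicans, heparan sulfate proteoglycans tethered to the cell surface that modulate growth factor signals. Chrdl1 encodes a secreted antagonist of bone morphogenetic proteins, Tnmd encodes tenomodulin, a membrane protein of tendons and ligaments, and Srpx and Srpx2 encode related secreted proteins with sushi repeats.

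Values are the authors' deposited log2 enrichments, read as ChIP over input, with 0 taken as the input level and 1 as 2-fold above it. Over input and below input refer to this deposited 0 throughout. Each library carries an unknown scale of its own, so the true input level may lie elsewhere. A value can therefore be ranked within its library, and differences between 2 genes in a library are free of that scale, but a difference between libraries is not. A change is the MD1 minus the WT log2 value, and at least 2-fold is used as the call. With 1 library per group no test was possible, and the 95% counting intervals given below cover counting error only. Whole-number ChIP and input pairs recovered from the values set these intervals. Over all genes the median ChIP pair ran from 13 (H3K9me3, MD1 EpiSCs) to 678 (H3K27me3, MD1 EpiSCs). Among the 10 genes the thinnest was Timp1, with input pairs of 13 to 27 and an MD1 MEF ChIP pair of 2 for H3K9me3 and 5 for H3K27me3. Gpc3, the longest at 341548 bases, had the highest ChIP pair in 4 of the 8 libraries. The median length was 94137 bases for the 10 genes and 20602 for the 698 genes with values throughout. Timp1 (4572 bases) and Bgn (12302 bases) were the shortest of the 10. Shares and percentiles over all genes therefore come from mostly shorter genes, and length was not matched.

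RefSeq start regions (build GRCm38.p6, which is not the mm9 build of the values) were found for 9 of the 10 genes, all but Chrdl1. The 250 bases before the start are shown for Timp1, Bgn and Gpc4, whose H3K27me3 was at least 2-fold lower in MD1 MEFs. They are also shown for Col4a6 and Col4a5, which are read in opposite directions from starts 1342 bases apart. Each is written 5′ to 3′ on its gene's strand, with every CG dinucleotide, the site of DNA methylation, in capitals. The windows are chrX:20869916-20870165 (+), chrX:73483351-73483600 (+), chrX:52164924-52165173 (−), chrX:141474077-141474326 (−) and chrX:141475169-141475418 (+).
Timp1: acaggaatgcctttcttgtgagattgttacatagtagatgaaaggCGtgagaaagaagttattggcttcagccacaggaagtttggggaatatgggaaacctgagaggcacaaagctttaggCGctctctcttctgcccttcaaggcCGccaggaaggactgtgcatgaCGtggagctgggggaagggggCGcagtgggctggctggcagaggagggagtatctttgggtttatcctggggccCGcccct
Bgn: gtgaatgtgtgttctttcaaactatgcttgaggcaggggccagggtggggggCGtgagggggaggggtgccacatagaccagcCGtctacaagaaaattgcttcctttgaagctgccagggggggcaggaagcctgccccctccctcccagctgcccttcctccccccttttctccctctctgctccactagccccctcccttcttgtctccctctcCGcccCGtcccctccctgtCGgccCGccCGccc
Gpc4: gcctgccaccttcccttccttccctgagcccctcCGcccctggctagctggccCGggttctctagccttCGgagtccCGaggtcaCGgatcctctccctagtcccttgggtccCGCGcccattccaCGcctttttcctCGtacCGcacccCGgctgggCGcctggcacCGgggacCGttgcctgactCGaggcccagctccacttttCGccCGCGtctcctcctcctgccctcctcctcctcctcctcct
Col4a6: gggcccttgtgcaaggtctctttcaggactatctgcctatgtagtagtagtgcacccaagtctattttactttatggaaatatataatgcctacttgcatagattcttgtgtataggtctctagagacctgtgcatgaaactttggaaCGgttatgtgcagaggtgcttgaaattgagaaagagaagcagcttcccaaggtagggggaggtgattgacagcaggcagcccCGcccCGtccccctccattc
Col4a5: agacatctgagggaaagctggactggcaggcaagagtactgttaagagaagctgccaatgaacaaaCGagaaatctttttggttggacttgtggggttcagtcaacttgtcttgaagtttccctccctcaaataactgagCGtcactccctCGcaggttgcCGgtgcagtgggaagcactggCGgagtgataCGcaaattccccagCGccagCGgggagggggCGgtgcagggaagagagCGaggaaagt
The motif searched was CG, which reads the same on both strands, and 92.1% of 32851 RefSeq windows of this length held at least 1, with a median of 6. Gpc3 had 25 and Gpc4 had 18, counts reached by 10.7% and 21.7% of all windows. Col4a5 had 10, Bgn 7, Timp1 6, Srpx 5 and Col4a6 3, while Tnmd and Srpx2 had 2 each. The 3 genes with at least 2-fold lower H3K27me3 in MD1 MEFs thus spanned 6 to 18 CG. Gpc3, with 25, was lower by less than 2-fold. The windows say nothing of methylation itself.

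In WT EpiSCs the 10 genes split by H3K9me3 into 4 that were at least 2-fold over input and 6 that were near or below it. Timp1 (X, 20447292 to 20451863, mm9) had 4.29, the highest of the 10 and at the 98.5 percentile of all genes in that library. Srpx (9615103 to 9694787) had 2.53, Tnmd (130385547 to 130400116) 1.92 and Srpx2 (130442964 to 130466985) 1.52. These 3 lay between the 43.1 and 57.4 percentiles, so they were ordinary for an X-linked gene in this library. The median over all genes was 2.03, and 64.0% of all genes were 2-fold over input, against 4 of these 10.

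Below them, Gpc4 (49406195 to 49518100) had 0.088 and Gpc3 (49625604 to 49967151) had −0.054. Bgn (70728974 to 70741275) had −0.48. Chrdl1 (139720217 to 139828805), Col4a6 (137599946 to 137908619) and Col4a5 (137909962 to 138123778) had −0.91, −0.96 and −1.04, at the 7.2, 6.7 and 6.3 percentiles. The 2 collagen chains and Chrdl1 were therefore among the X-linked genes with least H3K9me3. The 4 genes past 2-fold lay in longer runs of consecutive genes past the same limit, skipping genes without values in both EpiSC genotypes. Timp1 sat in a run of 95 genes from Chst7 to Igsf1 with the second highest value in it (rank 2). That value rests on a ChIP pair of 60 and an input pair of 13, so its exact rank is not resolved. It did not differ beyond counting error from that of Syn1, a gene that spans Timp1 (difference 0.34, −0.55 to 1.22). Srpx sat in a run of 70 genes at rank 64, and Tnmd and Srpx2 in the same run of 53 genes at ranks 47 and 51. Srpx, Tnmd and Srpx2 were thus among the lowest members of their runs, whose medians were 3.47 and 3.21.

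In WT MEFs Timp1 was again the highest of the 10 for H3K9me3, with 1.11 at the 81.7 percentile, and the only one 2-fold over input (20.3% of all genes were). Tnmd had −0.056, Bgn −0.37, Col4a6 −0.43, Gpc4 −0.46, Srpx −0.59, Srpx2 −0.65, Chrdl1 −0.81, Gpc3 −0.82 and Col4a5 −0.95. The order changed little at its ends, with Timp1 first and Col4a5 last in both cell types. Srpx and Srpx2 ranked lower in MEFs, at the 24.8 and 21.6 percentiles. The median percentile of the 10 genes was 22.0 in WT EpiSCs and 28.8 in WT MEFs for H3K9me3.

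H3K27me3 in WT cells was lowest of the 10 at Timp1, the gene with most H3K9me3, in both cell types. In WT EpiSCs the values were 4.85 at Col4a6, 4.80 at Chrdl1, 4.68 at Col4a5, 4.66 at Bgn, 4.59 at Gpc3 and at Gpc4, 4.39 at Tnmd, 4.30 at Srpx2 and 4.25 at Srpx, against a median of 4.17 over all genes. Timp1 had 3.12 and was the one gene under that median, at the 28.7 percentile. The spread from Srpx to Col4a6 was small, and Gpc4 and Gpc3 differed by 0.0033 (counting interval −0.14 to 0.14). In WT MEFs Bgn was highest with 2.87, at the 91.2 percentile, followed by Gpc3 with 2.75, Gpc4 with 2.69, Chrdl1 with 2.63, Col4a6 with 2.49, Tnmd with 2.41, Srpx with 2.21, Srpx2 with 2.18 and Col4a5 with 2.01. Timp1 was last with 0.81 at the 16.9 percentile, and it and Col4a5 were under the median of 2.09 over all genes. Biglycan and the 2 glypicans were thus among the genes richest in H3K27me3 in WT fibroblasts. The median percentile was 71.6 in WT EpiSCs and 72.0 in WT MEFs.

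**Figure D1:**
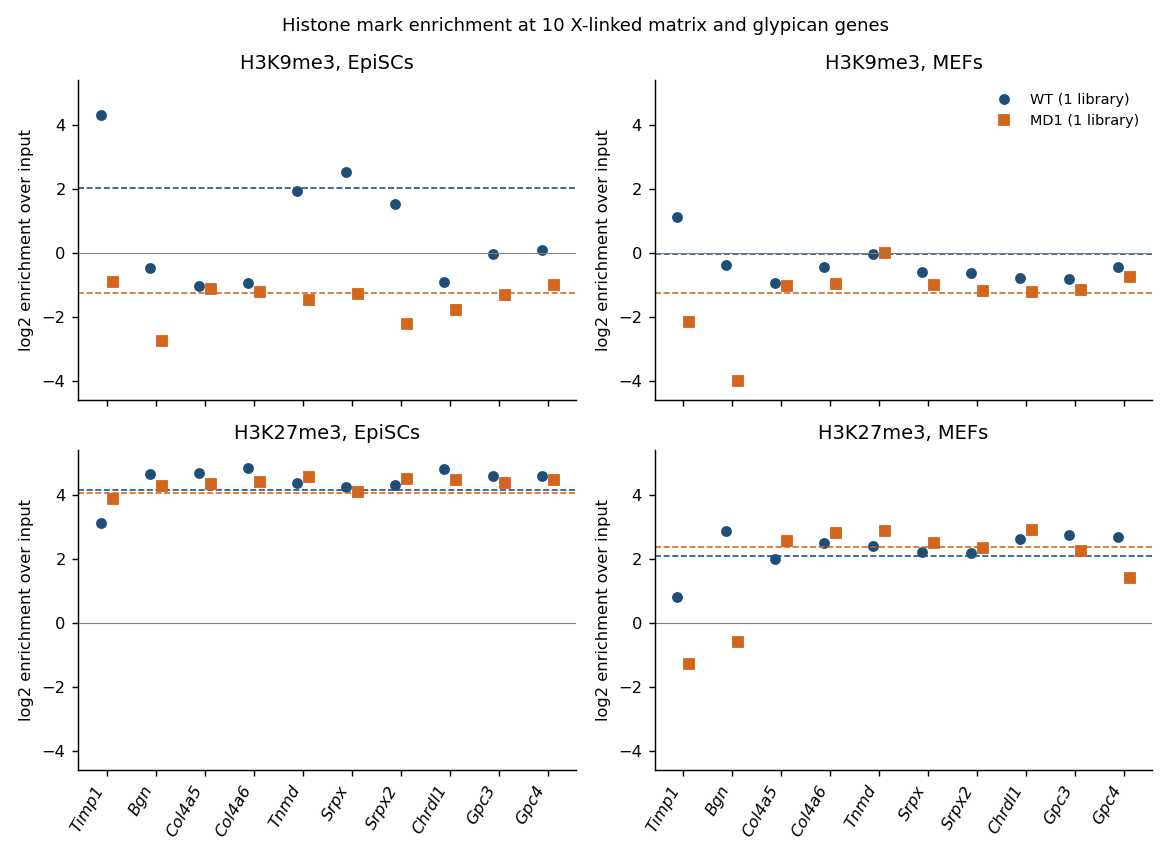
Log2 enrichment over input (y axis) of H3K9me3 (top) and H3K27me3 (bottom) at the 10 genes (x axis) in EpiSCs (left) and MEFs (right), 1 point per library with WT as circles and MD1 as squares, dashed lines marking the median of all genes in that library and the grey line the input level. H3K9me3 is 2-fold over input at Timp1, Srpx, Tnmd and Srpx2 in WT EpiSCs and at Timp1 (1.11) in WT MEFs, and the H3K27me3 points of Timp1 and Bgn drop below input in MD1 MEFs.

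**Figure D2:**
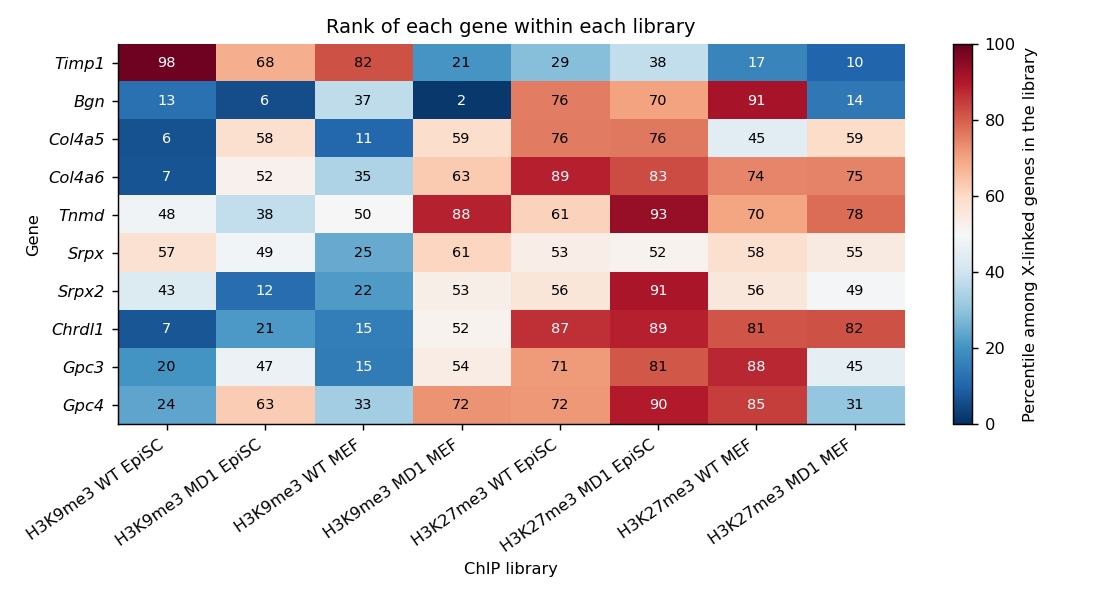
Percentile of each gene (rows) among all X-linked genes with a value in each ChIP library (columns), 0 being the lowest and 100 the highest. Bgn goes from the 91.2 percentile for H3K27me3 in WT MEFs to 14.3 in MD1 MEFs. Timp1 goes from 98.5 for H3K9me3 in WT EpiSCs to 68.2 in MD1 EpiSCs, the latter on a ChIP pair of 4.

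In MD1 EpiSCs H3K9me3 was below input at all 10 genes, between −0.92 at Timp1 and −2.77 at Bgn, as it was at 643 of all 736 genes with a value in that library. It was at least 2-fold lower than in WT at 7 of them and higher at 0, with a median change of −1.77. Over the 708 genes with both values, 82.9% were 2-fold lower and 1.13% higher, with a median of −2.98, so the share called among these genes was not above the background. The 4 genes that were rich in WT had changes of −5.22 to −3.38, and the other 6 had −2.28 to −0.080. The change contains the WT value, so this split is not independent of it.

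Among the 4 rich genes, Timp1 went from 4.29 to −0.92, a 37.2-fold lower enrichment (change −5.22, counting interval −6.98 to −3.45). Srpx went from 2.53 to −1.29 (−3.82, −4.23 to −3.41) and Srpx2 from 1.52 to −2.22 (−3.74, −4.98 to −2.50). Tnmd went from 1.92 to −1.46 (−3.38, −4.37 to −2.40). In MD1 these 4 genes were spread through the library, with Timp1 highest at the 68.2 percentile. Of the rest, Bgn changed from −0.48 to −2.77 (−2.28, −3.93 to −0.63), on ChIP pairs of 15 and 4. Gpc3 went from −0.054 to −1.32 (−1.26, −1.51 to −1.02) and Gpc4 from 0.088 to −1.03 (−1.11, −1.54 to −0.69). The changes of the 2 glypican genes did not differ beyond counting error (difference 0.15, −0.34 to 0.64). Chrdl1 went from −0.91 to −1.80 (−0.89), Col4a6 from −0.96 to −1.24 (−0.28) and Col4a5 from −1.04 to −1.12 (−0.080). For both collagen genes the counting interval included 0, and their changes lay at the 94.1 and 95.5 percentiles of all genes.

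These counts depend on the scale of the libraries. After changes were centred on genes outside the H3K9me3-rich set (a shift of −1.09), Timp1, Bgn, Srpx, Srpx2 and Tnmd stayed 2-fold lower (65.4% of all genes) and Col4a5 was 2-fold higher (4.66% of all genes). After centring on the median of all genes (a shift of −2.98) only Timp1 was 2-fold lower (29.8% of all genes), and Col4a5, Col4a6, Chrdl1, Gpc3 and Gpc4 were 2-fold higher (33.5%). Differences between genes do not depend on the scale. Relative to the median change over all genes, the decrease was larger beyond counting error at Timp1 and Srpx. It was smaller at both collagens, Chrdl1 and both glypicans. The change contains the WT value, which was low at the genes with smaller decreases.

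H3K27me3 differed little between WT and MD1 EpiSCs at these genes. None of the 10 passed 2-fold in either direction (0 lower, 0 higher), where 11.3% of 708 genes were lower and 22.7% higher. Most of the 10 are long for this background, and whether length bears on the difference was not tested. Changes ran from −0.45 at Col4a6 to 0.76 at Timp1, with a median of −0.18, against −0.069 over all genes. Timp1 went from 3.12 to 3.88 (0.76, −0.32 to 1.84), Srpx2 from 4.30 to 4.49 (0.19, −0.20 to 0.58) and Tnmd from 4.39 to 4.55 (0.16, −0.26 to 0.58). These 3 were H3K9me3-rich in WT, and their increases were within counting error. Srpx, the other rich gene, went from 4.25 to 4.11 (−0.14, −0.34 to 0.057). Col4a6 went from 4.85 to 4.40, Col4a5 from 4.68 to 4.34, Bgn from 4.66 to 4.28 and Chrdl1 from 4.80 to 4.47. Gpc3 went from 4.59 to 4.38 and Gpc4 from 4.59 to 4.47. In MD1 EpiSCs the 10 genes lay between 3.88 (Timp1) and 4.55 (Tnmd), a narrower range than in WT. Tnmd was at the 93.5 percentile and Srpx2 at 90.9. Values lie close together in this library, and with input pairs of 88 and 81 these 2 ranks are not resolved. After centring on genes outside the H3K9me3-rich set (a shift of −0.48) Timp1 was 2-fold higher, at 1.24 (32.1% of all genes), and after centring on the median of all genes 0 of the 10 were (24.3%).

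**Figure D3:**
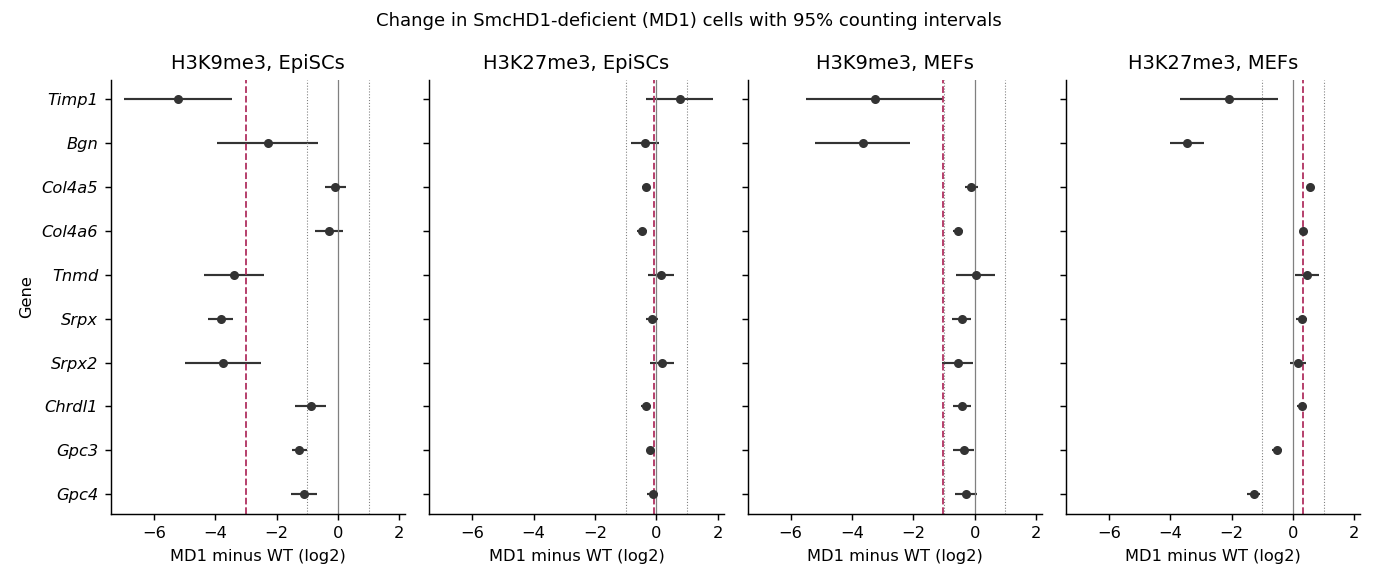
MD1 minus WT change in log2 enrichment (x axis) of the 10 genes (y axis) for each mark and cell type, with bars as 95% counting intervals, dotted lines at 2-fold and the dashed line at the median change of all genes. In MEFs the points of Timp1 and Bgn lie beyond 2-fold in both marks and Gpc4 in H3K27me3 alone, while in EpiSCs all H3K27me3 points lie within 2-fold.

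In MD1 MEFs H3K27me3 was at least 2-fold lower at Bgn, Timp1 and Gpc4 and higher at 0 of the 10, where 24.0% of 739 genes were lower and 22.3% higher. The same 3 genes were called after either centring (26.3% and 26.5% of all genes lower), and 0 were higher (16.0% and 15.2%). Bgn went from 2.87 to −0.58, an 11.0-fold lower enrichment (change −3.45, counting interval −4.02 to −2.89) that rests on ChIP pairs of 530 and 59. It passed from the 91.2 to the 14.3 percentile of its library. Timp1 went from 0.81 to −1.27 (−2.09, −3.68 to −0.49), on an MD1 pair of 5, and its rank moved less, from 16.9 to 10.2, since it was already low in WT. Gpc4 went from 2.69 to 1.41 (−1.28, −1.49 to −1.07), from the 84.6 to the 30.5 percentile, and stayed over input.

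Gpc3 had a smaller decrease than its neighbour, from 2.75 to 2.24 (−0.52, −0.69 to −0.34). The other 6 genes kept their H3K27me3 or had slightly more. Col4a5 went from 2.01 to 2.56 (0.56), Tnmd from 2.41 to 2.87 (0.46) and Col4a6 from 2.49 to 2.82 (0.34). Chrdl1 went from 2.63 to 2.92 (0.29), Srpx from 2.21 to 2.49 (0.28) and Srpx2 from 2.18 to 2.34 (0.16). These 6 lay close to the median change over all genes, 0.34, and below 2-fold. The 3 of 10 genes called were thus those for biglycan, glypican 4 and the metalloproteinase inhibitor. This share was close to the 24.0% of all 739 genes, so the count does not set these genes apart.

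H3K9me3 in MD1 MEFs was at least 2-fold lower at 2 of the 10, Bgn and Timp1, and higher at 0, where 51.3% of all genes were lower and 0.677% higher. Bgn went from −0.37 to −4.02 (−3.65, −5.20 to −2.09), at the 1.9 percentile of the MD1 library, although on an MD1 pair of 4. Timp1 went from 1.11 to −2.15 (−3.26, −5.51 to −1.02). All 10 genes were below input for H3K9me3 in MD1 MEFs, as were 670 of all 754 genes. Bgn and Timp1 were below input for H3K27me3 as well, where 134 of the 754 were. Gpc4, lower in H3K27me3, had −0.46 and −0.75 for H3K9me3 (−0.29, −0.64 to 0.073). Its MD1 input pair was 363, against 817 in WT, and may be a fraction of the true count. The interval may then be too wide, so its holding 0 does not show that Gpc4 was unchanged. Changes at the others ran from −0.55 at Srpx2 to 0.032 at Tnmd, which had −0.056 in WT and −0.024 in MD1 and passed from the 49.9 to the 88.3 percentile. Col4a6 went from −0.43 to −0.97, Srpx from −0.59 to −1.02, Chrdl1 from −0.81 to −1.22, Gpc3 from −0.82 to −1.17 and Col4a5 from −0.95 to −1.05. The median change of the 10 was −0.42, against −1.02 over all genes. After centring on that median, Tnmd was 2-fold higher (8.53% of all genes) and Bgn and Timp1 2-fold lower (25.2%). Centring on genes outside the rich set left Bgn and Timp1 lower (27.3%) and 0 higher (6.09%).

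Genes beside these members changed to different extents. The comparisons of Timp1, Bgn and Gpc4 with genes beside them were chosen after their values were seen. Timp1 lies wholly inside Syn1 (X, 20437637 to 20498044), a synapsin gene on the opposite strand, so reads over Timp1 may also be counted in Syn1. Their WT MEF values of H3K27me3 were close, 0.81 and 0.93. In MD1 MEFs Timp1 had −1.27 and Syn1 0.96, so the change at Timp1 was lower by −2.12 (counting interval −3.73 to −0.51, taking the counts as separate). In H3K9me3 the 2 changes, −3.26 and −2.49, did not differ beyond counting error (difference −0.77, −3.04 to 1.5). On its other flanks, Araf (a RAF kinase gene) changed by −2.00 in H3K27me3 and Cfp (properdin) by 0.28. Of the 10 measured genes nearest in order to Timp1, 5 were 2-fold lower in H3K27me3 in MD1 MEFs, with Uba1 lowest at −4.81, against 24.0% of all genes.

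Around Bgn, 6 of the 10 nearest measured genes were 2-fold lower in H3K27me3 in MD1 MEFs, against 24.0% of all genes, with Bcap31 lowest at −4.95. Haus7, 24605 bases before Bgn, changed by −3.28, much as Bgn did (difference −0.18, −0.89 to 0.53). Atp2b3, a calcium pump gene that starts 7149 bases after Bgn ends, went from 2.70 to 2.56, a difference from Bgn of −3.32 (−3.92 to −2.71). The genes on the 2 sides of Bgn thus differed in H3K27me3 in MD1 MEFs, with Haus7 at −0.41 and Atp2b3 at 2.56. In H3K9me3 in MEFs Bgn, on an MD1 pair of 4, differed from both, with −3.65 against −0.62 at Haus7 and −0.82 at Atp2b3. Bgn was not alone in this window, where Trex2 changed by −3.19 and Pnck by −3.99 in H3K9me3. The other neighbours had smaller decreases, from −0.44 at Zfp92 to −2.02 at Slc6a8.

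Gpc4 and Gpc3 lie 107503 bases apart. The counting intervals of their WT differences held 0 in both marks and cell types, narrowly for H3K9me3 in MEFs (0.36, −0.023 to 0.73). The WT MEF input pair of Gpc3 was 329, against 3602 in MD1 MEFs. It may be a fraction of the true count, which would make that interval too wide. Whether the 2 genes differed in H3K9me3 in WT MEFs is thus not settled. Their changes did not differ beyond counting error except for H3K27me3 in MEFs. There the change of Gpc4 was lower than that of Gpc3 by −0.76 (−1.04 to −0.49). In level, Gpc4 was above Gpc3 in MD1 MEFs by 0.43 in H3K9me3 (0.10 to 0.75). In H3K27me3 it was below Gpc3 in those cells by −0.83 (−1.02 to −0.63). Of the 10 measured genes nearest to Gpc4, 2 were 2-fold lower, Rap2c at −2.50 and Phf6 at −2.65, both at the far ends of the window, a share close to the 24.0% over all genes. Hs6st2, whose product adds sulfate to heparan sulfate, lies in the same window and changed by −0.65. The overlapping gene A630012P03Rik, which shares 11.2% of the length of Gpc3 on the other strand, changed by 0.13.

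**Figure D4:**
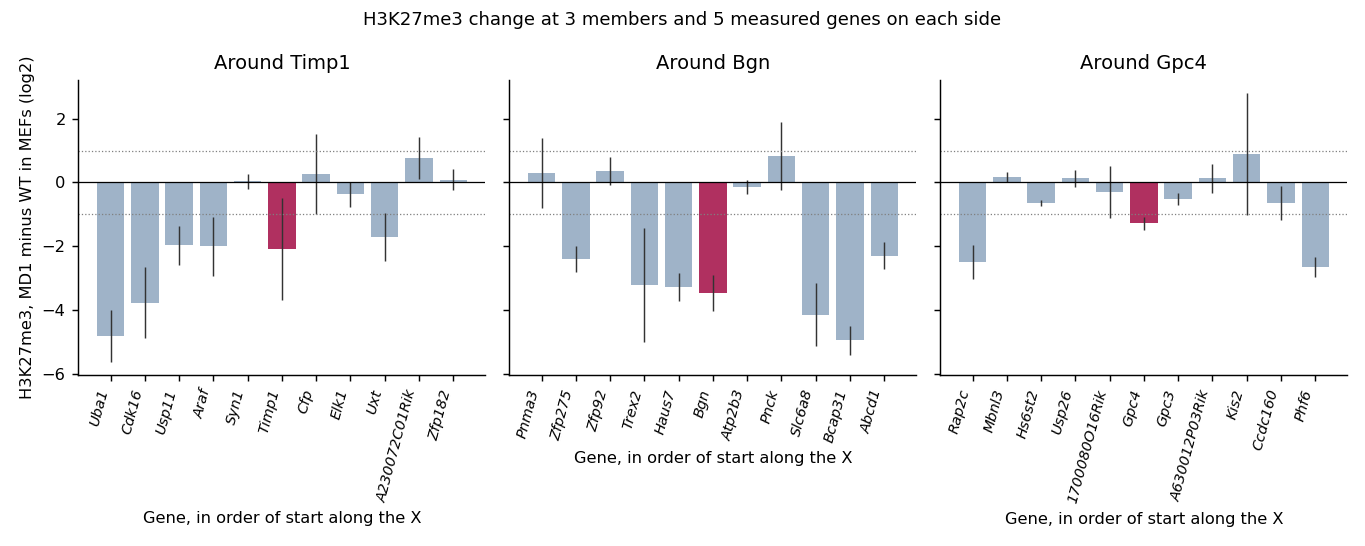
H3K27me3 change in MEFs, MD1 minus WT on the log2 scale (y axis), at Timp1, Bgn and Gpc4 (dark bars) and the 5 measured genes on each side in order of start (x axis), with 95% counting intervals and dotted lines at 2-fold. Bgn is as low as Haus7 beside it while Atp2b3 on the other side is near 0, and Gpc4 at −1.28 stands between genes within 2-fold.

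In WT EpiSCs Col4a5 was below Col4a6 by −0.17 in H3K27me3 (−0.30 to −0.043), beyond counting error, while in H3K9me3 there and in both marks in MD1 EpiSCs the intervals of the difference held 0. In WT MEFs Col4a5 was lower than Col4a6 in both marks, by −0.52 in H3K9me3 (−0.72 to −0.32) and by −0.48 in H3K27me3 (−0.59 to −0.37). In MD1 MEFs the H3K9me3 difference was −0.082 (−0.26 to 0.10) and that in H3K27me3 −0.26 (−0.35 to −0.17). The next gene beyond Col4a6, Atg4a, an autophagy protease gene 1132 bases away, changed by −1.46 in H3K27me3 in MEFs where Col4a6 changed by 0.34. Tnmd and Srpx2, 42847 bases apart with Tspan6 between them, had changes that did not differ beyond counting error in either mark or cell type. In MD1 MEFs, however, Srpx2 was below Tnmd by −1.18 in H3K9me3 (−1.72 to −0.63) and by −0.53 in H3K27me3 (−0.84 to −0.21).

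By the root mean square difference over the 8 libraries, the genes outside the list most like each were also mixed. Cask lay nearest to Gpc3 (0.11 on the log2 scale), Gucy2f to Col4a6 (0.11), Ppef1 to Col4a5 (0.12), Otc to Srpx (0.17), Zfp185 to Chrdl1 (0.20), Tspan6 to Tnmd (0.22), A830080D01Rik to Gpc4 (0.25) and Smpx to Srpx2 (0.26). Timp1 and Bgn lay furthest from their most similar gene, with Gpkow at 0.43 and Rap2c at 0.59. Their ChIP pairs were as low as 2 and 4, and counting error adds to this difference. The larger distances therefore do not show a distinct profile.

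A companion list of 11 other X-linked genes of matrix, glycosaminoglycan metabolism and secreted signals (Egfl6, Amelx, Nyx, Eda, Ndp, Figf, Fgf16, Bmp15, Chst7, Hs6st2 and Ids) was measured in the same libraries. For H3K27me3 in MD1 MEFs 0 of the 11 were 2-fold lower, with Hs6st2 lowest at −0.65, and 2 were higher, Chst7 and Bmp15, where 24.0% of all genes were lower and 22.3% higher. The difference from the 3 of 10 above was not tested. Chst7, a sulfotransferase gene, went from 0.98 to 2.81 (1.83, 1.57 to 2.08), and Bmp15, a growth factor gene of the oocyte, from 1.52 to 2.54 (1.03, 0.35 to 1.71). Their median change was 0.40. In H3K9me3, 9 of the 11 were 2-fold lower in MD1 EpiSCs (82.9% of all genes), from −4.79 at Ids, an iduronate sulfatase gene of lysosomes, to −0.87 at Eda, a ligand of the TNF family, and 5 of 11 in MD1 MEFs (51.3%), from −1.66 at Chst7 to −0.21 at Hs6st2. Both counts were close to the share over all genes. H3K27me3 in EpiSCs was 2-fold higher at 1 of the 11, Chst7 (1.04), and lower at 0, with Bmp15 lowest at −0.70, where 22.7% of all genes were higher and 11.3% lower.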

How the data were processed

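ChIP-seq of H3K9me3 and H3K27me3 with input had been run in 12 samples, 1 per group. The submitters' processing notes name cutadapt, BWA, SAMtools and mm9. For versions, counting rule, pseudocount and allele, nothing is given in the sources used here. Log2 enrichment was deposited by the authors for each X-linked gene in each ChIP library. Deposited starts were read as counting from 0 and are printed from 1. The log2 values were factored into the smallest whole-number ChIP and input pairs times 1 constant per library (denominator at most 30000, relative tolerance 1e-12), which matched 100% of values. On simulated counts the pairs were exact for 84.5% of 708 genes (WT EpiSC) and 82.9% of 739 (MD1 MEF). True counts may be multiples of the pairs, and an interval is then too wide. The 95% counting intervals use a normal approximation on the log scale. A 2-fold change (MD1 minus WT) is a call, and no p-value was computed. Percentiles are within a library. All 10 members were named, together with overlapping and adjacent genes, the most similar gene, and the companion genes with the largest decrease and increase; the neighbour windows and gene-to-gene differences were added afterwards. The members and lists were chosen with earlier results of these data known. Alternatives were 2 centrings, a pseudocount of 0.1, calls at 1.5-fold and 3-fold, and leaving out the lowest 10% of genes or input pairs under 20. Python 3.11.15 and pandas 2.3.3 were used.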

Additional observations from a re-analysis of the deposited data

Results flagged for a closer look

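Col4a5, Col4a6 and Chrdl1 had H3K27me3 changes of opposite direction in the 2 cell types, each beyond counting error, lower in MD1 EpiSCs and higher in MD1 MEFs. The MEF change minus the EpiSC change was 0.89 at Col4a5 (counting interval 0.73 to 1.06), 0.79 at Col4a6 (0.60 to 0.97) and 0.63 at Chrdl1 (0.41 to 0.84). The difference was not tested, since each change rests on 1 library per genotype and includes the unknown scales of 4 libraries. All 6 changes were under 2-fold. The median change over all genes had the same signs, −0.069 in EpiSCs and 0.34 in MEFs. In the companion list only Eda had this pattern beyond counting error (−0.58 and 0.37). The share of all genes with it was not counted, so it is not shown to be particular to these genes. After centring on genes outside the H3K9me3-rich set, all 3 genes were above 0 in both cell types (in MEFs 0.28, 0.055 and 0.0071). After centring on the median of all genes, the opposite direction remained at Col4a5 (−0.27 and 0.22), while Col4a6 and Chrdl1 were below 0 in both.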

How the results depend on the processing

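Every change includes library scales that are not known, and H3K9me3 in MD1 EpiSCs depended on them most. The median change of the 10 genes there was −1.77 as deposited, −0.69 after centring on genes outside the H3K9me3-rich set and 1.21 after centring on the median of all genes. Under the first centring 1 gene was 2-fold higher in place of 0, and under the second 1 was lower in place of 7 and 5 were higher, with Bgn at 0.70, Gpc3 at 1.72 and Gpc4 at 1.87. These reversals follow from the shift itself. With a pseudocount of 0.1 Gpc4 was at −0.98, just under 2-fold. For H3K27me3 in EpiSCs the median moved from −0.18 to 0.30 with the first centring, and 1 gene (Timp1) was higher in place of 0, as it was with a 1.5-fold call. For H3K9me3 in MEFs the median of −0.42 became 0.47 and 0.60 with the 2 centrings, the second of which put 1 gene higher. The 2 genes lower there became 1 without the lowest 10% of genes and 1 with input pairs of at least 20, since these settings drop a gene (Bgn in the first, Timp1 in the second). For H3K27me3 in MEFs, Bgn, Timp1 and Gpc4 kept their calls under every centring and pseudocount run. The 3 genes lower there became 2 with a 3-fold call, which Gpc4 at −1.28 did not reach. They also became 2 without the lowest 10% of genes and with input pairs of at least 20, since both settings drop Timp1. Of 12 single-gene calls in all, 6 held in every setting that kept the gene and the 2-fold threshold. No paired analysis was possible because each group held 1 library. Low counts limit Timp1 most.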
